A study of Mus musculus with 4 samples.

Results

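The peptidases of the enterocyte surface were examined in epithelial cells of the mouse small intestine. The group was set by name and held 9 genes: the aminopeptidases Anpep, Enpep and Xpnpep2, the dipeptidyl peptidase Dpp4, the zinc peptidases Mme and Ace, the meprin subunits Mep1a and Mep1b, and enteropeptidase, Tmprss15. Members were chosen with earlier results of these data known. These genes were measured by 15 probe sets named for 1 of them alone, of 45037 probe sets and 18193 genes on the array. The arrays compared AP-1B-/- mice, labelled knockout (2 arrays), with AP-1B+/- mice, labelled heterozygous (2 arrays), all healthy C57BL/6J adults of 10 weeks under specific pathogen-free conditions. AP-1B is a clathrin adaptor found in polarized epithelia, and its mu1B subunit is the product of Ap1m2. Every array thus came from mice with at least 1 targeted allele, and no wild-type array was analysed here. Epithelium was loosened with 30 mM EDTA for 20 min and collected by hand, and the labels leave unstated the deleted segment of the gene, whether the loss was limited to epithelium, and whether each array came from 1 animal. A probe set outside the deleted segment would not check the labels. P-values therefore measure only the spread between these arrays, which may be technical.

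Brush border peptidases carry protein digestion further at the membrane of the microvilli. There they cut the oligopeptides left by pancreatic proteases into amino acids and into short peptides for uptake. Enteropeptidase stands at the head of that cascade, since it cleaves trypsinogen to trypsin in the duodenal lumen. AP-1B is known for sorting membrane proteins to the basolateral surface, whereas these peptidases are held at the apical one. The arrays measure transcripts and give no information on where a protein lies.

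The targeted gene did not follow the labels. The single Ap1m2 probe set read 2.49 on the array labelled knockout 1 and 22.3 on knockout 2, against 19.9 on heterozygous 1 and 4.33 on heterozygous 2. Signals are MAS5 intensities as deposited, in multiples of the array median. By Ap1m2 the arrays thus ran from knockout 1, the lowest, through heterozygous 2 and heterozygous 1 to knockout 2, so the signal went against the labels of knockout 2 and heterozygous 2. Every array is named below by its label, and every direction by label carries that reserve. Arrays numbered 1 and 2 also differed in sex pattern, with Xist at 0.070 on knockout 1 and 0.349 on heterozygous 1, and at 60.1 on knockout 2 and 30.3 on heterozygous 2, so each label held 1 array of either pattern. The 75th percentile of signal was 5.57 on knockout 1 and 4.27 on knockout 2, against 4.13 on heterozygous 1 and 5.54 on heterozygous 2. The number of arrays limits the precision of every value.

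All 9 peptidases had their lowest signal on the array labelled knockout 1, as did all 15 of their probe sets, where 21.1% of 22519 kept probe sets did. The kept probe sets are the brighter part by mean signal over all arrays, and all 15 passed that filter. For 6 of the 9 genes (Anpep, Enpep, Dpp4, Mme, Ace and Mep1a) the order from high to low was heterozygous 1, knockout 2, heterozygous 2, knockout 1, an order found at 4.4% of kept probe sets. That order is the one by Ap1m2 except that heterozygous 1 and knockout 2 change places. The signal on knockout 1 was 0.106 (Ace) to 0.763 (Mep1b) of that on heterozygous 1, with a median of 0.235 over the 9 genes. On knockout 1 the signal was at or below 0.5 of the next lowest array for 5 of the 9 genes, where 3.95% of kept probe sets were. The signal on knockout 2 was 0.708 (Mep1b) to 2.28 (Mep1a) times that on heterozygous 2, with a median of 1.12. For each gene except Mep1b the arrays labelled knockout differed from each other by more than the means of the labels did, as the plot of signal by genotype label shows.

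**Figure D1:**
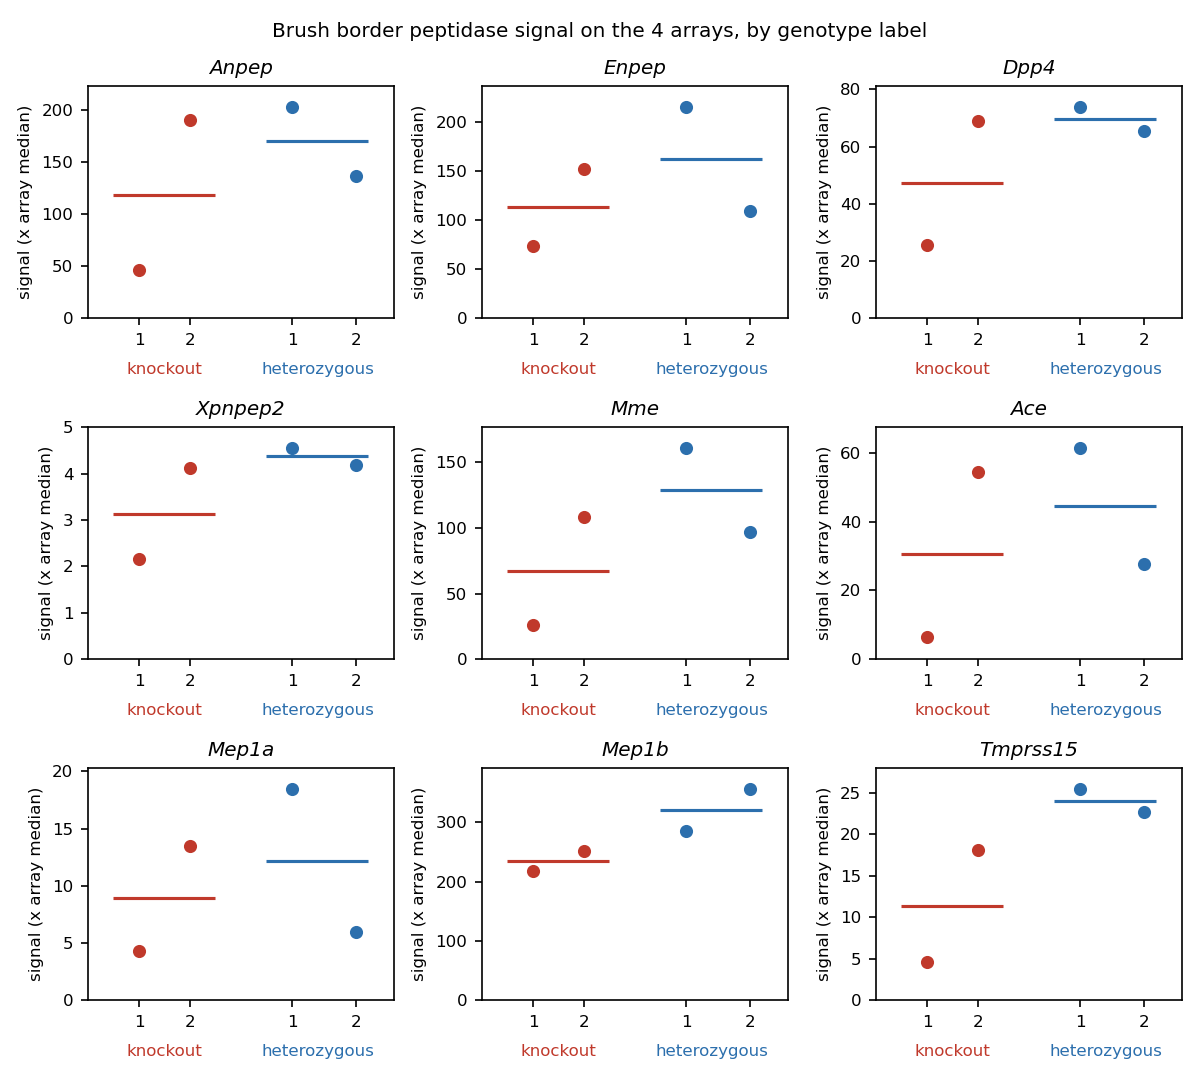
Signal of the brightest probe set of each peptidase gene (vertical axes from 0, in multiples of the array median) on the arrays labelled knockout 1 and 2 (red) and heterozygous 1 and 2 (blue), with the mean of each label as a line. The red point of knockout 1 is the lowest in all 9 panels, and the labelled groups are apart in 3 of them (Mep1b, Tmprss15 and Xpnpep2).

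By label, no peptidase passed the test of knockout against heterozygous arrays. In the limma fit over all kept probe sets, 0% of them had an adjusted p under 0.05 (0 of 22519, Benjamini-Hochberg), and 170 of them, 0.755%, had an unadjusted p under 0.05, with 0 of 15 for the peptidases. With the test limited to the brightest 25% of probe sets 4 of 12 peptidase probe sets had an unadjusted p under 0.05, against 96 of 11260 in all, and 0 of the 12 passed the adjusted threshold. The mean log2 signal was lower on the arrays labelled knockout at all 9 genes, as it was at 49.3% of kept probe sets. The median log2 difference, knockout minus heterozygous, was -0.72 over the 9 genes and 0.0054 over all kept probe sets. Without the array labelled knockout 1 the median over the 9 genes was -0.016, with 6 genes lower and 3 higher. It was -1.43 without knockout 2, -0.54 without heterozygous 1 and -1.10 without heterozygous 2. Over all kept probe sets the median moved too, to -0.17 without knockout 1 and 0.18 without knockout 2. It was -0.20 over all kept probe sets without heterozygous 1 and 0.20 without heterozygous 2. The labelled groups did not overlap, with knockout lower, at 3 of 9 genes and 3 of 15 probe sets, where 10.7% of kept probe sets were of that kind, and with knockout higher at 0 of 9 genes, against 6.56% of kept probe sets. With quantile normalization only Mep1b, 1 of 9 genes and 1 of 15 probe sets, had knockout lower without overlap, against 11.0% of kept probe sets.

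Promoter sequence was set beside these profiles because the genes shared a low array. Of the 9 genes, 8 had an entry in the RefSeq promoter table (build GRCm38.p6), with 11 start sites in all. The 250 bases before each start were searched on both strands for short cores of factors known to drive enterocyte genes, namely CAAAGT for HNF4, GTTAAT for HNF1, TTTATG for CDX and GATAAG for GATA factors. The HNF4 core occurred in 4 of the 11 windows, belonging to Ace, Mep1a and Mme, and in 12.6% of 32851 windows of all genes. By gene it occurred in 3 of 8, and the share by gene over all genes was not counted. The windows are not independent, since both windows of Ace held the core and some windows of Mme overlap. By the RefSeq span of each gene, the Ace window not shown, chr11:105974939-105975188, lies within the gene. So do the Mep1a window, the Mme window that held the core and the Xpnpep2 window. Among windows with the HNF4 core, only the Ace window shown lies before the whole span of its gene. The CDX core (10.8% of all windows) and the HNF1 core (6.43%) each occurred in 1 window, both in that of Tmprss15, and the GATA core (6.55%) in that of Enpep. The windows of Anpep, Dpp4 and Xpnpep2 held none of these letters. Windows of 4 of the 5 genes that held a core are shown, from enteropeptidase at the head of the cascade to the surface enzymes, each written 5′ to 3′ on the strand of the gene, with capitals for a core on either strand.
Tmprss15, chr16:79091098-79091347, minus strand, with the CDX core 146 bases and the HNF1 core 44 bases before the start: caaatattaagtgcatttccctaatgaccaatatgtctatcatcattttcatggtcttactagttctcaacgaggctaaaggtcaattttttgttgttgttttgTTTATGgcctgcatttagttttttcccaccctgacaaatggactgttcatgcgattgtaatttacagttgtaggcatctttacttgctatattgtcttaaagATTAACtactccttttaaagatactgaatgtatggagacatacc
Enpep, chr3:129332750-129332999, minus strand, with the GATA core 70 bases before the start: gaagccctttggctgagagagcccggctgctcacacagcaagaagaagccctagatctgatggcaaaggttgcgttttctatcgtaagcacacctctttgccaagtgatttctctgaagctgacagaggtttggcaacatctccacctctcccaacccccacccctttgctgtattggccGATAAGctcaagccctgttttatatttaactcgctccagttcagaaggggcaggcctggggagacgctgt
Ace, chr11:105967698-105967947, plus strand, with the HNF4 core 102 bases before the start: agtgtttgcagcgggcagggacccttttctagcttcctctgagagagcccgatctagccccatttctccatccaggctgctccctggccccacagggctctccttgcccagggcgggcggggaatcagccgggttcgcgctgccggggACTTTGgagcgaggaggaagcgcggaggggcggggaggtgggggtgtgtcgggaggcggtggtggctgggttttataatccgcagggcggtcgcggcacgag
Mep1a, chr17:43502774-43503023, minus strand, with the HNF4 core 29 bases before the start: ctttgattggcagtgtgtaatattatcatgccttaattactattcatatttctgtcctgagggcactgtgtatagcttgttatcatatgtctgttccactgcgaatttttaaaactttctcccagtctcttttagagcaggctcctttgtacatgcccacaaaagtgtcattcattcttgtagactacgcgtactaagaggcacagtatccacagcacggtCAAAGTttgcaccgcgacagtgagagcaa
The cores are 6 letters long, so a match describes the window and is not a binding site. The GC content of the windows ran from 34.0% for Tmprss15 to 73.6% for 1 of the 3 starts of Mme.

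Of the aminopeptidases, Anpep and Enpep followed the shared order, and Xpnpep2 did not. Anpep encodes aminopeptidase N (CD13), the broad-range enzyme that removes neutral residues from the N-terminus. Its signal was 46.7 on the array labelled knockout 1 and 190.3 on knockout 2, against 203 on heterozygous 1 and 137 on heterozygous 2. It averaged 119 ± 101 on the arrays labelled knockout and 170.2 ± 46.6 on those labelled heterozygous (SD, n = 2 each). Knockout 2 lay near heterozygous 1, at 0.937 of its signal, and above heterozygous 2. The log2 difference by label was -0.82 (SE, the standard error, 0.62; limma, adjusted p = 0.999907), which turned to 0.19 without knockout 1. Enpep encodes aminopeptidase A, which removes acidic residues and is known for converting angiotensin II. It had 74.0 and 152 on knockout 1 and 2, against 215 and 109.6 on heterozygous 1 and 2. Here heterozygous 2 lay nearer to knockout 1, at 1.48 times its signal, and the log2 difference was -0.53 (SE 0.53; limma, adjusted p = 0.999907), or -0.016 without knockout 1. Xpnpep2, the membrane-bound aminopeptidase P that cuts before proline, was dim, with 2.15 and 4.13 on knockout 1 and 2, against 4.55 and 4.19 on heterozygous 1 and 2. The other 3 arrays were close together for Xpnpep2, and although the labelled groups did not overlap, knockout 2 was 0.984 of heterozygous 2. The log2 difference was -0.50 (SE 0.46; limma, adjusted p = 0.999907), and -0.076 without knockout 1. With quantile normalization knockout 2 (4.67) lay above heterozygous 2 (3.75), so the groups then overlapped.

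Dpp4 encodes dipeptidyl peptidase IV (CD26), which releases dipeptides ending in proline or alanine and inactivates incretin hormones. Its brightest probe set had 25.5 and 68.9 on the arrays labelled knockout 1 and 2, against 73.8 and 65.3 on heterozygous 1 and 2. The signals of the 3 arrays other than knockout 1 thus lay within 1.13 times of each other. The mean was 47.2 ± 30.6 for knockout and 69.6 ± 6.03 for heterozygous (SD, n = 2 each). The log2 difference was -0.72 (SE 0.59; limma, adjusted p = 0.999907), and -0.012 without knockout 1. The other 3 probe sets of Dpp4 had the same order of arrays, with knockout 1 at 0.195 to 0.244 of heterozygous 1, against 0.346 for the brightest. They set heterozygous 2 lower than the brightest did, with knockout 2 at 1.33 to 1.94 times heterozygous 2, against 1.05.

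The zinc peptidases Mme and Ace had the lowest ratios of knockout 1 to heterozygous 1. Mme encodes neprilysin (CD10), an endopeptidase that cuts on the amino side of hydrophobic residues. Its brightest probe set had 25.8 and 108 on the arrays labelled knockout 1 and 2, against 161 and 96.6 on heterozygous 1 and 2, and its second had 7.17 and 37.6, against 66.4 and 29.4. Both probe sets put heterozygous 1 on top and knockout 1 far below the other arrays. The log2 differences were -1.23 (SE 0.66) and -1.40 (SE 0.76), neither past the threshold (limma, adjusted p = 0.999907 for both), and that of the brightest was -0.20 without knockout 1. Ace encodes angiotensin-converting enzyme, a dipeptidyl carboxypeptidase of the brush border and of endothelium. Its brightest probe set had 6.49 and 54.5 on knockout 1 and 2, against 61.3 and 27.8 on heterozygous 1 and 2. The mean was 30.5 ± 33.9 for knockout and 44.5 ± 23.7 for heterozygous (SD, n = 2 each). The second probe set had 1.78 and 32.1, against 42.1 and 19.0. Of the 9 genes Ace had the widest range over the arrays, 9.46-fold by the brightest probe set, and 23.6-fold by the second. The log2 differences by label were -1.11 (SE 0.85) and -1.79 (SE 0.99; limma, adjusted p = 0.999907 for both). That of the brightest turned to 0.40 without knockout 1. The second probe set of Ace was the only one of the 15 to pass the threshold with an array left out, at -3.77 (SE 0.83) without knockout 2 (limma, adjusted p = 0.00128), where 1.07% of kept probe sets passed (240 of 22519). That fit sets 1 array labelled knockout against 2 labelled heterozygous, so the lone array is assumed to vary as the heterozygous ones do. After quantile normalization no probe set passed without knockout 2 (0 of 22519 by limma, with 2625 at an unadjusted p under 0.05).

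The meprin subunits differed in profile. Mep1a and Mep1b encode the alpha and beta chains of meprin, a metalloproteinase whose beta chain is membrane-anchored and whose alpha chain can be released. Mep1a had 4.33 and 13.5 on the arrays labelled knockout 1 and 2, against 18.4 and 5.92 on heterozygous 1 and 2. The 2 arrays with low Ap1m2, knockout 1 and heterozygous 2, were both low for Mep1a, and the second probe set agreed in order with 2.78 and 5.25, against 10.0 and 3.10. The log2 difference by label was -0.43 (SE 0.67; limma, adjusted p = 0.999907), which turned to 0.35 without knockout 1 and 0.36 without heterozygous 1. Mep1b had 217 and 252 on knockout 1 and 2, against 285 and 356 on heterozygous 1 and 2. Its labelled groups, with means of 235 ± 24.5 for knockout and 320.5 ± 50.4 for heterozygous (SD, n = 2 each), did not overlap, and its whole range was 1.64-fold, the narrowest of the 9 genes. Heterozygous 2, second lowest for Mep1a, was the highest array for Mep1b. The log2 difference of Mep1b was -0.44 (SE 0.38; limma, adjusted p = 0.999907), and it stayed between -0.60 and -0.28 with each array left out. With quantile normalization Mep1b had 192 and 301 on knockout 1 and 2, against 314 and 335 on heterozygous 1 and 2.

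Tmprss15, enteropeptidase, had the lowest log2 difference among the brightest probe sets. It had 4.56 and 18.1 on the arrays labelled knockout 1 and 2, against 25.4 and 22.6 on heterozygous 1 and 2. The labelled groups did not overlap, and knockout 1 had 0.252 of the signal of the next lowest array, a gap as wide or wider at 1.22% of kept probe sets. The log2 difference was -1.36 (SE 0.66; limma, adjusted p = 0.999907, unadjusted p = 0.0611). It was -0.40 without knockout 1 and -2.32 without knockout 2. With quantile normalization knockout 2 (21.5) lay above heterozygous 2 (18.4), so the groups then overlapped.

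Beside the Ap1m2 signal of each array, the peptidases differed in where heterozygous 2 lay. Arrays were neither averaged nor compared by that signal, since it was itself measured on them. A block added to the label test after seeing the data, described below, joined the same pairs of arrays as that signal does. On a log2 scale centred on the mean of each brightest probe set, heterozygous 2 lay below 0 for Mep1a (-0.58), Enpep (-0.22) and Ace (-0.013), and knockout 1 lay lower still for these genes. For Anpep, Dpp4, Mme, Xpnpep2 and Tmprss15 only knockout 1 lay below 0, with heterozygous 2 between 0.13 and 0.60. For Mep1b knockout 1 (-0.33) and knockout 2 (-0.12) both lay below 0. The place of heterozygous 2 depended on the probe set for Ace, whose second had it at 0.33, and for Dpp4, of which 2 of the other 3 had it at -0.24 and -0.078.

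Since the 75th percentile was higher on knockout 1 and heterozygous 2, the profiles were also read after quantile normalization, which makes the arrays' distributions equal. Knockout 1 was then still the lowest array at all 9 genes and all 15 probe sets, where 32.8% of kept probe sets were lowest there. Knockout 2 lay above heterozygous 2 on that scale at 8 of 9 genes, where 48.4% of kept probe sets did, and on the deposited scale at 6 of 9 genes, where 24.8% did. On the quantile scale heterozygous 2 also lay below 0 for Anpep (-0.071), Dpp4 (-0.019), Mme (-0.013) and, barely, Xpnpep2, so the split between these genes and Mep1a, Enpep and Ace was not kept. Knockout 2 lay at 0.11 for Mep1b.

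**Figure D2:**
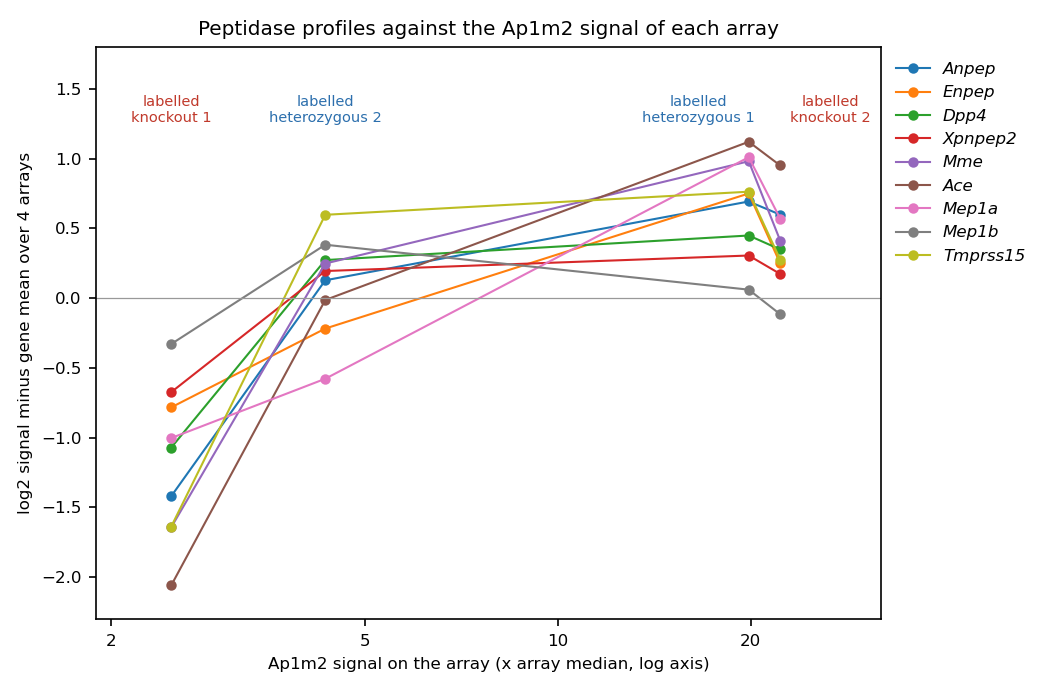
Log2 signal of each peptidase gene minus its mean over the 4 arrays (vertical axis) against the Ap1m2 signal of the same array (horizontal log axis), with lines joining the points of a gene. The array labelled knockout 1, with the lowest Ap1m2 signal, has the lowest point of each gene, and Mep1b has the flattest line.

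**Figure D3:**
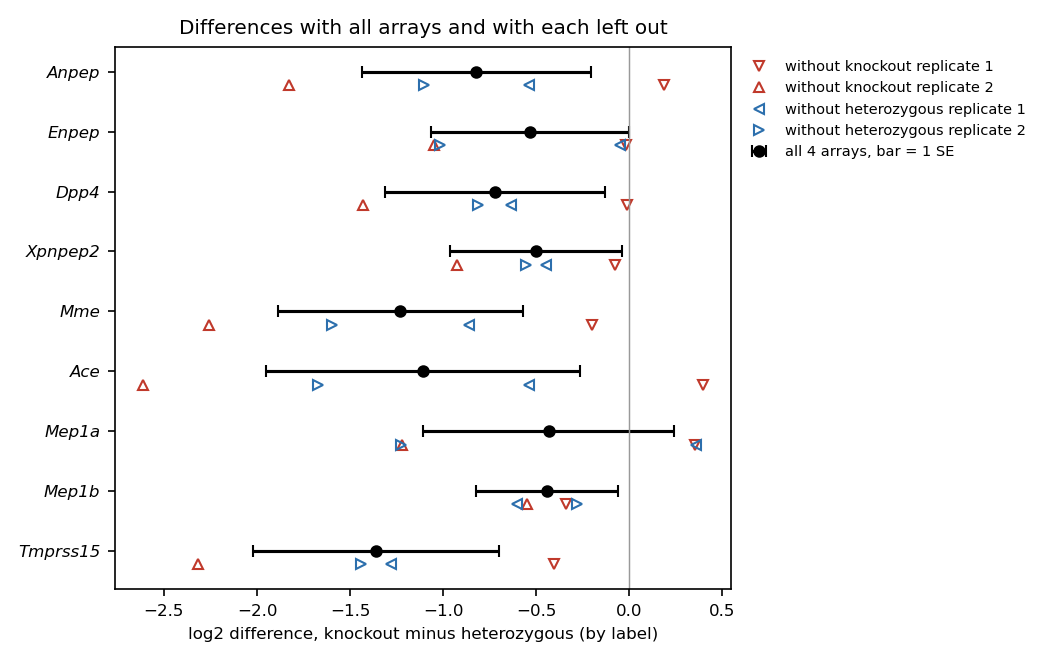
Log2 difference, knockout minus heterozygous by label, of each peptidase gene with all 4 arrays (black, bar = 1 SE of the limma fit) and with each array left out (open triangles). Without knockout 1 the values lie near 0, between -0.40 (Tmprss15) and 0.40 (Ace).

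Within the arrays of each number the 2 labels gave unlike pictures. For the arrays numbered 1, which had the male pattern, the median log2 difference, knockout minus heterozygous, was -2.01 over the 9 peptidases and 0.40 over the 11326 genes with a kept probe set. All 9 peptidases were lower on knockout 1 than on heterozygous 1, where 31.2% of kept probe sets were. For the arrays numbered 2, with the female pattern, the median was 0.16 over the peptidases and -0.40 over all genes. With 1 array of each label in a pair, neither comparison has a replicate check.

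Genes of protein digestion outside the group were read from lists. Of the list of other surface peptidases, 8 of 13 genes had a kept probe set, 4 with a lower and 4 with a higher mean log2 signal on the arrays labelled knockout (median log2 difference -0.12, 0 past the threshold). Among them Naaladl1, a peptidase of the NAALADase family, had 0.879 and 35.0 on knockout 1 and 2, against 46.9 and 3.70 on heterozygous 1 and 2. It was low on both arrays with low Ap1m2. Dpep1, a membrane dipeptidase, had 28.6 and 63.9 on knockout 1 and 2, against 65.9 and 84.4 on heterozygous 1 and 2. Both are among the 4 of 8 genes lowest on knockout 1, against 21.1% of kept probe sets, and 2 of the 8 were highest there, against 41.1%. St14, the brightest of the list, was highest there, with 134 and 66.7, against 63.9 and 112. The median log2 difference of knockout 1 minus heterozygous 1 was 0.22 over the 8 genes. The 17 cytosolic peptidases, which finish the di- and tripeptides inside the cell, were lowest on knockout 1 at 3 genes, against 21.1% of kept probe sets, and highest there at 8, against 41.1% (median log2 difference -0.039, 11 lower and 6 higher, 0 past the threshold). Lap3, leucine aminopeptidase, had 37.8 and 30.3 on knockout 1 and 2, against 42.2 and 47.4 on heterozygous 1 and 2. The prolidase gene Pepd had 34.3 and 64.0, against 71.6 and 58.8, and Cndp2, a cytosolic dipeptidase, had 64.5 and 50.6, against 117 and 60.2. Of these 3, only Pepd was lowest on knockout 1. All 3 are among the 5 of 17 genes that were lower on knockout 1 than on heterozygous 1. The median log2 difference between those arrays over the 17 genes was 0.54, against 0.40 over all genes.

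Most uptake genes for the products of these enzymes were lowest on the array labelled knockout 1. Of 12 measured genes for peptide and amino acid uptake, 11 were lowest on that array, against 21.1% of kept probe sets. By label 11 were lower, against 49.3% of kept probe sets (median log2 difference -0.56, 0 past the threshold). Slc15a1, the proton-coupled peptide transporter PEPT1, had 9.03 and 33.4 on knockout 1 and 2, against 33.6 and 29.0 on heterozygous 1 and 2. Slc6a19, the neutral amino acid transporter of the brush border, had 23.4 and 106, against 112 and 110.3. For both genes knockout 1 stood alone below the other 3 arrays.

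**Figure D4:**
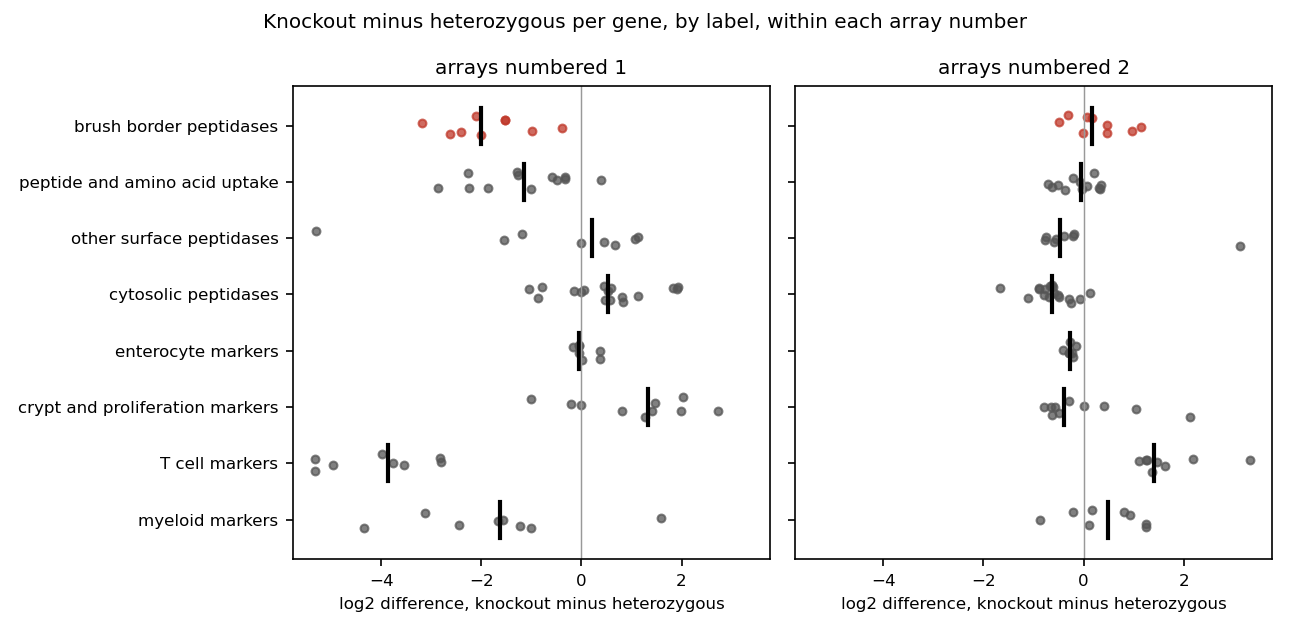
Log2 difference, knockout minus heterozygous by label, of each gene (points) and the list median (black bars), within the arrays numbered 1 (left) and those numbered 2 (right), on log2(signal + 0.32). The peptidases (red, top) lie below 0 at all 9 genes on the left and around 0 on the right.

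On the deposited scale enterocyte markers were not lowest on the array labelled knockout 1, while markers of other cells differed there too. All 7 measured enterocyte markers were bright on every array, with a summed signal of 4055 on the array labelled knockout 1 and 3127 on knockout 2, against 3844 on heterozygous 1 and 3763 on heterozygous 2, and 0 of 7 were lowest on knockout 1. With quantile normalization 5 of the 7 were lowest there, where 32.8% of kept probe sets were. The brightest, the fatty acid binding protein gene Fabp1, had 910.4 and 582, against 707 and 769.5, and the apolipoprotein gene Apoa1 had 758 and 633, against 782 and 733. The highest value of any probe set was that of Fabp1 on knockout 1 and heterozygous 2, and that of Apoa1 on the other arrays. Whether signals so near the top of the scale understate differences was not tested. Of 10 crypt and proliferation markers, 7 were highest on knockout 1, where 41.1% of kept probe sets were, and their sum was 487 and 254 on knockout 1 and 2, against 256 and 297 on heterozygous 1 and 2, with Pcna at 197 and 70.4, against 74.0 and 121, and Olfm4 at 106 and 117, against 122 and 88.6. T cell markers, which bear on Dpp4 since T cells also carry it, were lowest on knockout 1 at 8 of 8 kept genes. Over all kept probe sets 21.1% were lowest there. Of 10 listed genes these 8 passed the filter on mean signal, which a gene high on other arrays can pass. Cd3e, for one, had 0.211 and 5.88, against 8.09 and 0.296. The T cell sum was 13.2 and 281 on knockout 1 and 2, against 458 and 92.1 on heterozygous 1 and 2. Gzma had 5.79 and 149, against 244 and 53.8, and Ccl5 had 2.01 and 61.8, against 93.2 and 13.3. Myeloid cells also carry Anpep, and their markers were lowest on knockout 1 at 5 of 8 kept genes, against 21.1% of kept probe sets. The myeloid sum was 36.2 and 48.5, against 102 and 38.7, with Lyz2 at 20.8 and 15.6, against 42.0 and 18.1, and Csf1r at 3.89 and 8.19, against 22.7 and 3.26. Endothelial markers, which bear on Ace, summed to 3.26 and 4.64 on knockout 1 and 2, against 5.31 and 2.78, with 3 of 8 genes kept and the brightest, Eng and Tek, at no more than 2.45 on any array. The part of these cells in the peptidase values was not tested, no marker was listed at exactly 0, and in bulk RNA fewer cells of a type cannot be told apart from less RNA per cell.

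The genes whose profile was nearest to the mean centred log2 profile of the 9 peptidases were taken among 4847 other genes with a mean signal of at least 10. Over the 4 arrays the root mean square distance was 0.027 on the log2 scale for Pbld2, 0.028 for Bcl2l11, 0.060 for Slco2a1, 0.085 for Treh, 0.087 for AW112010 and 0.093 for Ces2a, against a median of 0.93 over all of these genes. Treh, the brush border disaccharidase trehalase, had 54.6 and 172 on the arrays labelled knockout 1 and 2, against 216 and 158 on heterozygous 1 and 2. Among the peptidases themselves the distance from their mean profile ran from 0.15 for Dpp4 and 0.16 for Anpep to 0.57 for Ace and 0.60 for Mep1b. Dpp4 and Anpep were thus nearest to the group's mean, while Ace had a deeper and Mep1b a shallower profile.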

How the data were processed

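Total RNA was labelled with biotin and hybridised to 4 one-colour Affymetrix arrays. The authors deposited 1 intensity per probe set and array, made with MAS5 per the submitters' processing notes, with its version not given in the sources used here. Array medians lay between 0.996 and 0.998, a scaling seen in the values and not stated. The platform annotation named the probe sets, and sequences came from RefSeq. Members and lists were chosen with earlier results of these data known. Named genes were all members, Ap1m2, preset list genes, sex-linked transcripts, the 2 brightest of each marker list and the 6 nearest profiles. Values were transformed as log2(value + 0.32), the pseudocount being the 25th percentile. Probe sets with a mean of at least 0.983 were kept (22519). The test of the labels used limma 3.58.1 under R 4.3.3 (lmFit, eBayes with trend), adjusted over all kept probe sets. The code of the fit was checked on simulated data with independent noise of equal size at all probe sets. That check does not bear on power or error in these arrays. With 2 arrays a label, the smallest two-sided p of an exact permutation test is 0.333, so none was run. Any 2 arrays shared at most 0.144% of their values, so no array was a copy of another. Each was counted as a sample, though this check cannot tell whether arrays came from different animals. Alternatives varied the pseudocount, filter, scaling, trend, replicate block, probe set rule and arrays. Detection calls and scan dates were not used here.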

Additional observations from a re-analysis of the deposited data

Results flagged for a closer look

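For 6 of the 9 peptidases the difference between labels ran in opposite directions within the arrays numbered 1, which had the male pattern, and within those numbered 2, which had the female pattern. Over all 11326 kept genes the medians also had opposite signs, 0.40 for the arrays numbered 1 and -0.40 for those numbered 2. The share of all probe sets with opposite directions was not counted. The number 2 difference minus the number 1 difference was 2.58 on the log2 scale for Anpep, 1.60 for Dpp4, 2.00 for Enpep, 2.79 for Mme, 3.16 for Mep1a and 4.14 for Ace. Knockout minus heterozygous was -2.11 within the arrays numbered 1 and 0.47 within those numbered 2 for Anpep, and -3.18 and 0.96 in that order for Ace. With 1 array of each label per number, these differences were not tested. Mep1b (-0.39 and -0.50), Tmprss15 (-2.40 and -0.32) and Xpnpep2 (-0.98 and -0.021) kept the same sign for both numbers on the deposited scale. With quantile normalization the difference within the arrays numbered 2 was 0.22 for Tmprss15 and 0.29 for Xpnpep2, so only Mep1b (-0.71 and -0.16) kept its sign on that scale.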

How the results depend on the processing

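The median log2 difference over the peptidases was negative under the other pseudocounts, filters, scalings, the fit without trend, an average over each gene's probe sets and the replicate block (-0.72, as without it), and 0 of the peptidase probe sets passed under each of these. The block left 0 probe sets past the threshold, as without it, and it changed no other call. Arrays numbered alike deviated in opposite directions from their group means (r = -0.51 over 22519 probe sets). A block of crossed numbers was then added after seeing the data. It joined knockout 1 with heterozygous 2 and knockout 2 with heterozygous 1, which are also the pairs with low and with high Ap1m2. This limma fit also gave 0 calls, with 9 of 15 peptidase probe sets and 1246 of 22519 in all at an unadjusted p under 0.05. Since the pairs were taken from these same data, those counts give no separate support. With the test limited to the brightest 25% of probe sets, which leaves out Xpnpep2, 1 passed, which was no peptidase. With each array left out in turn, 0 to 240 probe sets passed, 240 without knockout 2 and 24 without knockout 1, 0 to 1 of them a peptidase, and the median over the peptidases ran from -1.43 to -0.016. The sign turned without knockout 1 for Anpep (0.19), Mep1a (0.35) and Ace (0.40), and without heterozygous 1 for Mep1a (0.36), and the lowest values with an array left out were -1.83, -1.23 and -2.61 for Anpep, Mep1a and Ace. The settings that follow were added after seeing the data. With quantile normalization and without knockout 2 the median was -1.64, and without knockout 1 it was 0.27, with Anpep at 0.49, Dpp4 at 0.30, Enpep at 0.27, Mme at 0.099, Mep1a at 0.55, Ace at 0.69 and Xpnpep2 at 0.052. Each label's arrays numbered 1 alone gave a median of -2.01 and those numbered 2 alone 0.16. The cause of these changes was not tested. Having 2 arrays a label limits every value.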

Other observations

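Transcripts of pancreatic acinar cells, among them the trypsinogen that enteropeptidase activates, were dim, and their sum was highest on the array labelled knockout 2. Prss2, an anionic trypsinogen that belongs to a family of near-identical copies, had 0.179 and 13.0 on the arrays labelled knockout 1 and 2, against 0.227 and 4.83 on heterozygous 1 and 2. Of 7 kept acinar genes, 6 had a higher and 1 a lower mean log2 signal on the arrays labelled knockout (median log2 difference 1.34, 0 past the threshold). Their sum was 14.4 and 98.8 on knockout 1 and 2, against 31.8 and 27.3 on heterozygous 1 and 2. Of 15 listed genes these 7 passed the filter on mean signal over all arrays, which a gene high on 1 array can pass. Cpa1 had 0.089 and 8.9, against 0.079 and 0.166, so the count and the median rest in part on that filter. The 2 brightest were the colipase gene Clps, at 11.7 and 16.5 on knockout 1 and 2, against 30.6 and 10.9 on heterozygous 1 and 2, and the elastase gene Cela2a, at 0.082 and 24.5, against 0.120 and 3.49.

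Tmprss15 is known as a duodenal gene, and markers of intestinal segments were read beside it. Of 6 proximal markers, 3 were lowest on the array labelled knockout 1, and 4 with quantile normalization (median log2 difference -0.18). Over all kept probe sets 21.1% were lowest there, and 32.8% with quantile normalization. The iron exporter gene Slc40a1, the brightest, had 248 and 339 on knockout 1 and 2, against 318 and 340.0 on heterozygous 1 and 2. Lct, lactase, the next brightest, had 3.97 and 237, against 312 and 82.3. The duodenal factor gene Pdx1 had 29.9 and 41.2, against 29.3 and 51.6. Of 5 distal markers, 2 passed the filter on mean signal, so the distal list is read from these alone. Both were lowest on knockout 1 on either scale, Slc51a at 39.4 and 75.2, against 57.1 and 71.0, and Slc51b at 5.40 and 31.5, against 27.1 and 12.9, a median log2 difference of -0.36. Of the other lists, B and plasma cell markers had a median of -0.31 over 5 genes, led by Igha at 237 and 199 on knockout 1 and 2, against 413 and 204 on heterozygous 1 and 2, and Jchain at 34.1 and 39.6, against 205 and 34.9. Stromal and muscle markers had a median of -0.019 over 5 genes, with Acta2 at 9.66 and 10.1, against 5.91 and 6.39, and Col3a1 at 6.08 and 3.52, against 5.28 and 4.19.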
